A study of Mus musculus with 6 samples.

Results

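The 42 genes described here belong to the ATF4 amino acid response and to the endoplasmic reticulum (ER) stress response, and they were followed in the epidermis of ARPC4 ko and wt mice. They were chosen as a fixed list of gene symbols that includes kinases and transcription factors of these responses and well known target genes. Eif2ak4, the gene of the kinase GCN2 that acts when amino acids run short, is not on the list. All 42 were found among the 41214 gene identifiers of the files, and all 42 were among the 13704 genes with enough counts to test. For the description they were divided into 22 genes of the amino acid response, 13 ER chaperones and protein disulphide isomerases, 3 genes of ER-associated degradation (ERAD) and 4 sensors of the unfolded protein response. Xbp1, which encodes a transcription factor and not a sensor, is counted in the sensor class beside Ern1, Atf6 and Eif2ak3.

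The tissue was epidermis of C57BL/6 mice at postnatal day 4, taken from trypsinized skin, and its messenger RNA was sequenced. There were 3 libraries from ARPC4 ko and 3 from wt epidermis, with no other allele or agent named for either group. The gene encodes a subunit of the Arp2/3 complex, which builds branched actin networks, and the series title places its loss in the epidermis beside psoriasis-like disease and Nrf2 hyperactivation. The labels give neither the deleted exons nor a Cre driver, so it is not known here which cells of a sample had lost the protein.

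When misfolded proteins collect in the ER, the membrane proteins PERK, IRE1 and ATF6 relay the stress to the nucleus. PERK phosphorylates the translation factor eIF2alpha, as GCN2 does when amino acids run short, and the transcription factor ATF4 is then translated more and switches on genes for amino acid uptake, amino acid synthesis and tRNA charging. IRE1 splices the Xbp1 transcript, and XBP1 and ATF6 switch on chaperones and degradation factors, which in keratinocytes are also drawn on during differentiation, when much protein and lipid is made and secreted. A count of reads per gene measures the amount of transcript, not the splicing of Xbp1, the phosphorylation of eIF2alpha or the amount of ATF4 protein.

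Amino acid response genes and chaperone genes are known for different DNA elements, and promoters that hold them are shown here because those groups are described separately below. The amino acid response element, bound by ATF4 with a C/EBP partner, was searched for as TGATGNAA (TTNCATCA on the other strand). The ER stress element, bound by ATF6 with NF-Y, was searched for as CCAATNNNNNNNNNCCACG (CGTGGNNNNNNNNNATTGG on the other strand), and the core of the unfolded protein response element as TGACGTG. Forms of the ER stress element with another spacing were not searched for, so a promoter without a mark may still hold one. Promoter sequences from RefSeq (GRCm38.p6, the assembly also named mm10) were at hand for 36 of the 42 genes, and the 250 bases before the transcript start were searched on both strands. Some genes have more than 1 start, so that the 36 genes had 40 windows. In the form searched for, the ER stress element occurred in 7 of the 36 genes (19.4%), against 0.113% of all 32851 windows. In that form all 7 were among the 11 chaperone genes with a window, namely Hspa5, Hsp90b1, Calr, Canx, Pdia6, Creld2 and Dnajc3. The amino acid response element occurred in 6 genes (16.7%), against 3.45% of all windows, namely Asns, Aars, Gars, Chac1 and Vldlr of the amino acid response and Herpud1 of ERAD. The unfolded protein response core occurred in Hspa5 (2.78% of the genes), against 1.65% of all windows. The elements did not overlap each other in the windows shown.

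Each line gives the 250 bases before the start, 5′ to 3′ on the strand of the gene, with the fixed letters of an element in capitals. The chaperone promoters are those of the 3 genes with the highest levels among the 7 that hold the ER stress element. Hspa5 (chr2:34771840-34772089, plus strand) has the unfolded protein response core 157 to 151 bases before the start and the ER stress element 65 to 47 bases before it. Hsp90b1 (chr10:86705445-86705694, minus strand) has the ER stress element in both orientations, and Calr (chr8:84846932-84847181, minus strand) has it reversed, 162 to 144 bases before the start.
Hspa5: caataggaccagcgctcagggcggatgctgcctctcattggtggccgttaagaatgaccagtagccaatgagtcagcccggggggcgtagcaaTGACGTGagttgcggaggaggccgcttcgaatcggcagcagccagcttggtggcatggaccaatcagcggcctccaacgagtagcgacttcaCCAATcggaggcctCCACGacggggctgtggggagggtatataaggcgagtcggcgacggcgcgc
Hsp90b1: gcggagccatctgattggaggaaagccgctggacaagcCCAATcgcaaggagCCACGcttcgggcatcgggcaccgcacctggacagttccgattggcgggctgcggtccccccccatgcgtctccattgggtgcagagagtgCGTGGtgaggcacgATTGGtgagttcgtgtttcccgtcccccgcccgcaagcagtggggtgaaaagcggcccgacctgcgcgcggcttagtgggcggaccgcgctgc
Calr: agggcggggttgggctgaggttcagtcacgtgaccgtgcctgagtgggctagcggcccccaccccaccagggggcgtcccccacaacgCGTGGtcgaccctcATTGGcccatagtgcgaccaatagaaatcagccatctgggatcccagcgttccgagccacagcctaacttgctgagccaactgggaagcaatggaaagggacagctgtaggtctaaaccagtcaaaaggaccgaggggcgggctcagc
The amino acid response element is shown in Asns, Gars and Herpud1, whose log2 fold changes of ko over wt (0.51, 0.01 and -0.23) differed in sign or size. In Asns (chr6:7693210-7693459, minus strand) it lies 23 to 16 bases before the RefSeq start. In Gars (chr6:55037751-55038000, plus strand) it is reversed and lies 30 to 23 bases before the start, and in Herpud1 (chr8:94386179-94386428, plus strand) it is reversed and lies 112 to 105 bases before it. The Herpud1 line also holds attgg and ccacg close together, an arrangement that was not searched for and is left unmarked.
Asns: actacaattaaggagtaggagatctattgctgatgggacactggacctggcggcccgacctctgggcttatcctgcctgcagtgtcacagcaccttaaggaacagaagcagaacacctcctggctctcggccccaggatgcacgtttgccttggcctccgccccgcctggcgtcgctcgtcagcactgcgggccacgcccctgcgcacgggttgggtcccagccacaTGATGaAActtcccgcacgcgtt
Gars: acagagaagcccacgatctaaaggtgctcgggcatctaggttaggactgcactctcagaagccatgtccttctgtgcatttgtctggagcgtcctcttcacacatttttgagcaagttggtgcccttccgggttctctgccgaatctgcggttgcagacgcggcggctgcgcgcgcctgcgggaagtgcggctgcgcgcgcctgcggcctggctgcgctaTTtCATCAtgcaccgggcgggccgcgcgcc
Herpud1: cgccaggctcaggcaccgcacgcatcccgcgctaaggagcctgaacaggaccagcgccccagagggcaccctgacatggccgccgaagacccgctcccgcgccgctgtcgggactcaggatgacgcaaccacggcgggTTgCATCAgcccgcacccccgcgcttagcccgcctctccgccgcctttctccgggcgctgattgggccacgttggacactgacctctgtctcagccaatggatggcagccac

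Counts assigned to genes ran from 17561294 to 20745246 in the ko libraries and from 19532675 to 22659511 in the wt libraries. Levels are given in CPM, counts per 1000000 counts of the scaled library. Arpc4 itself was measured at 65.9 ± 1.56 CPM in ko and 76.1 ± 5.61 CPM in wt (SD, n = 3 each). Its log2 fold change of -0.21 (SE 0.10) did not pass the test (adjusted p = 0.469). The groups did not overlap: the highest ko library had 67.55 CPM and the lowest wt library 72.55 CPM. These counts do not check the deletion, since a count per gene does not show which exons or which cells the reads came from. The cause of the difference was not tested. The summed markers of suprabasal keratinocytes made up 84940 to 157600 CPM in ko and 83740 to 138900 CPM in wt, so the defining transcripts of the labelled tissue were abundant. Replicates 1 and 2 of each group carry a date in their titles, while replicate 3 carries none and has the word Tryp in place of a replicate numeral. The labels do not say what the date or that word marks, nor whether the replicates came from separate animals.

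No gene of the 42 rose or fell in ARPC4 ko epidermis past the threshold, an edgeR quasi-likelihood test with Benjamini-Hochberg adjusted p under 0.05 over all 13704 genes. The count was 0 of 42, where 0.219% of all genes passed (30 higher, 0 lower). DESeq2 also called 0 of the 42, against 4.25% of the genes it tested, and limma-voom called 0 of the 42 and 0 of all genes. The smallest adjusted p with edgeR among the 42 was 0.184, for the amino acid transporter gene Slc7a5. At an unadjusted p under 0.05 there were 7 genes higher in ko (16.7%, against 7.98% of all genes), namely Sesn2, Asns, Shmt2, Mthfd2, Slc7a5, Hspa5 and Pdia4. There was 1 gene lower (2.38%, against 5.25% of all genes), Ddit4. The number higher was 2 without ko replicate 3, 3 without wt replicate 2, 4 without ko replicate 2, wt replicate 1 or wt replicate 3, and 11 without ko replicate 1. The number lower was 1 without ko replicate 2 or wt replicate 3 and 0 without each of the other libraries. The counts over all genes, both directions together, moved as well. They ran from 1229 of 14025 without wt replicate 1 to 2350 of 13996 without wt replicate 3, against 1814 of 13704 with all libraries.

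The log2 fold change was above 0 for 35 of the 42 genes (83.3%, against 53.1% of all genes), with a median of 0.25, against 0.02 over all genes tested. In 13 genes the lowest ko library exceeded the highest wt library (31.0%, against 11.3% of all genes). They were Atf4, Asns, Phgdh, Shmt2, Mthfd2, Slc7a5, Slc7a1, Aars, Nars, Calr, Hyou1, Pdia3 and Pdia4. In 0 of the 42 was the highest ko library under the lowest wt library, against 8.03% of all genes, and in the other 29 the groups overlapped. The genes share regulators and libraries and are not independent of each other, so these shares describe the list and are no test of it. The differences were small: the 95% interval of the log2 fold change lay within -1 and 1 for 37 of the 42 (88.1%, against 64.3% of all genes). It reached above 1 for Sesn2, Vldlr, Slc7a5, Slc1a5 and Dnajb9, and below -1 for none of the 42.

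**Figure D1:**
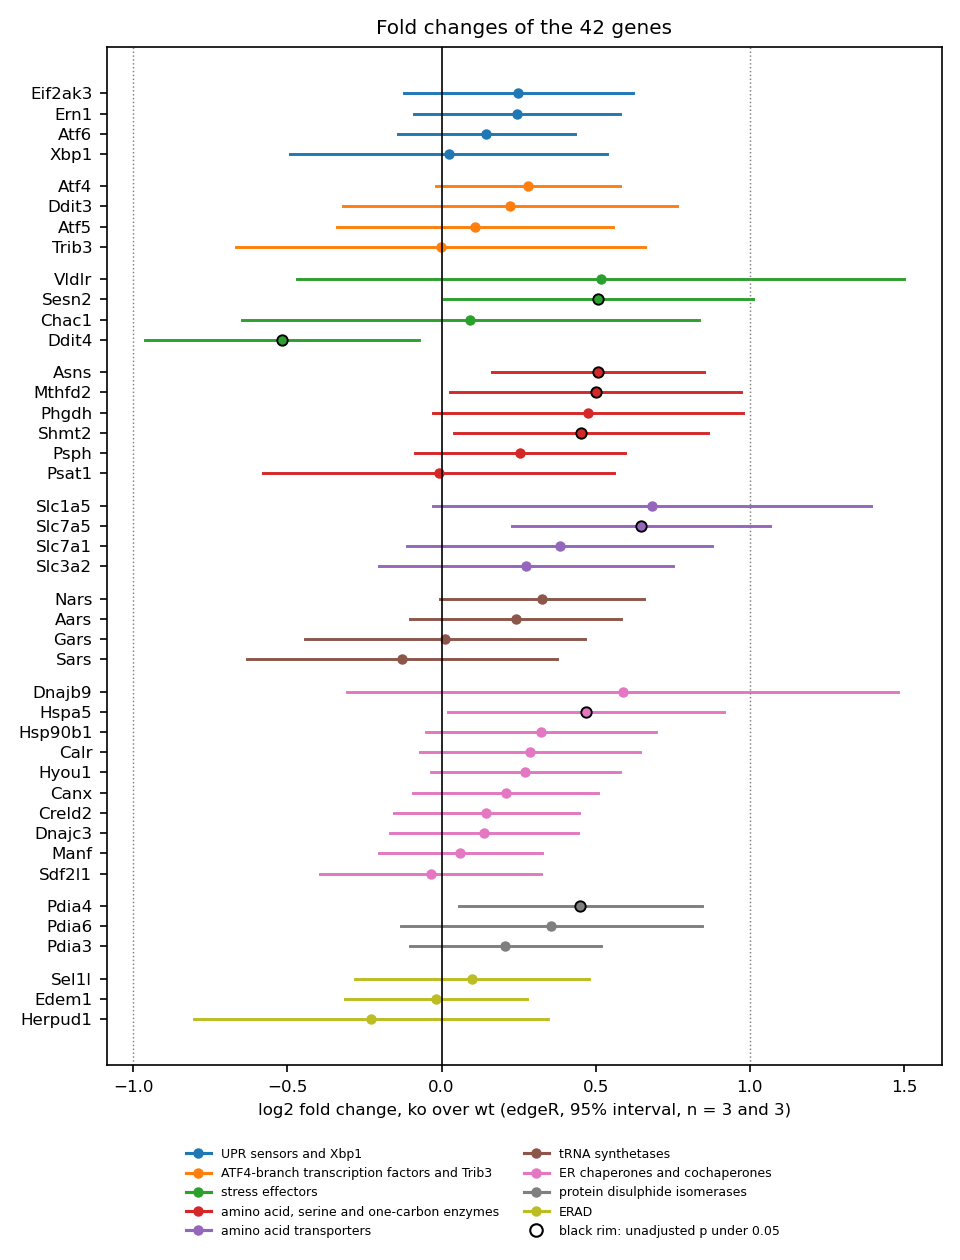
The horizontal axis gives the edgeR log2 fold change of ko over wt with its 95% interval (3 libraries in each group), the genes run down the page by role, and black rims mark the 8 genes with an unadjusted p under 0.05. Most points lie between 0 and 0.7, with the transporter genes Slc1a5 and Slc7a5 farthest to the right and Ddit4 alone near -0.5.

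By class, the median log2 fold change was 0.28 for the 22 amino acid response genes, 0.27 for the 13 chaperone and isomerase genes, 0.20 for the 4 sensors and -0.02 for the 3 ERAD genes. In each library the median deviation of a class from the gene means showed how even this was. For the amino acid response genes it was 0.03, 0.23 and 0.17 in ko replicates 1 to 3 and -0.03, -0.22 and -0.23 in wt replicates 1 to 3 (log2 CPM). For the chaperone class it was 0.01, 0.19 and 0.14 in ko and -0.05, -0.09 and -0.20 in wt. The ko libraries therefore lay above the wt libraries in both classes, with ko replicate 1 closest to wt. For the ERAD genes it was 0.13, 0.06 and -0.19 in ko and 0.07, 0.11 and -0.17 in wt, so there the groups overlapped and replicate 3 was the lowest in each.

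**Figure D2:**
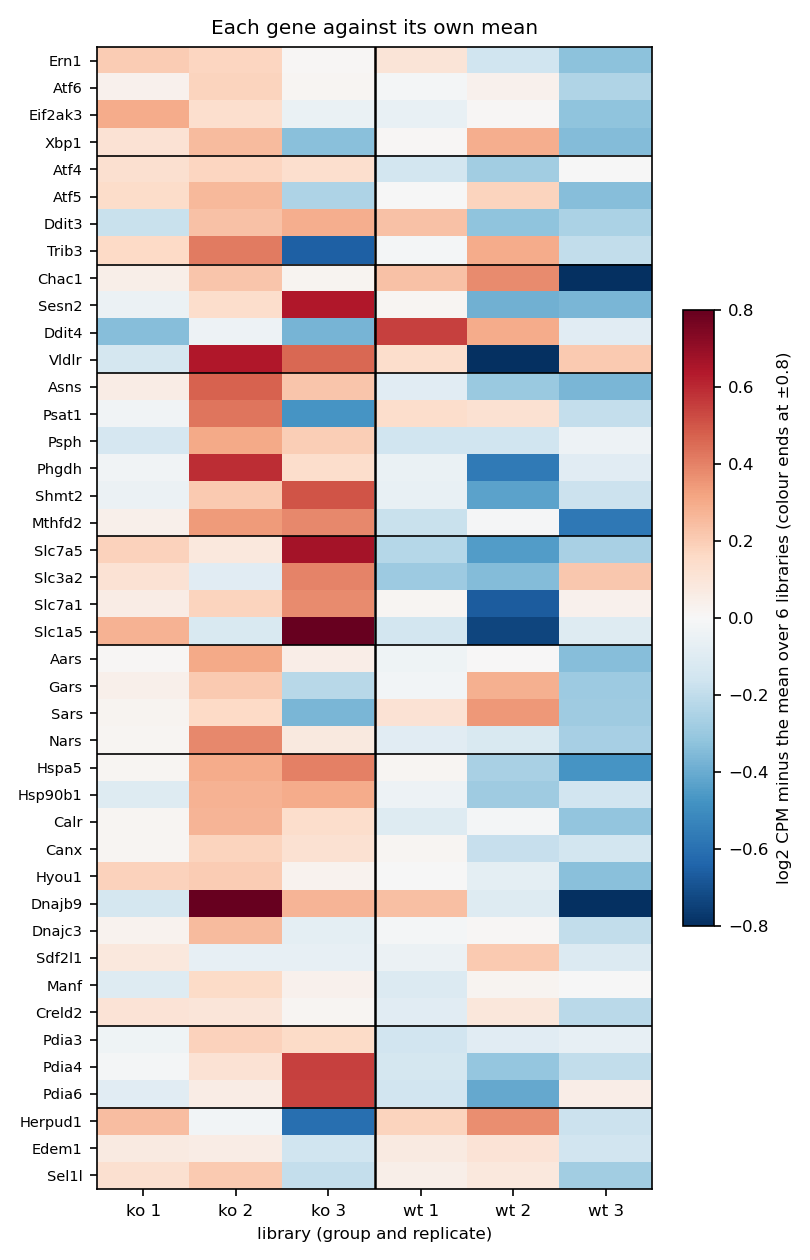
Each row is a gene, each column a library, and colour gives log2 CPM minus the mean of that gene over the 6 libraries, with colour ending at 0.8 either way and lines between the roles. The ko replicate 2 column is above the mean for most genes and the wt replicate 3 column below it. Ddit4 is low in ko replicates 1 and 3, while its ko replicate 2 and wt replicate 3 lie close to its mean.

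Among the sensors, the PERK gene Eif2ak3 had a log2 fold change of 0.25 (SE 0.16) and the IRE1 gene Ern1 of 0.25 (SE 0.14). The Atf6 gene, which encodes the membrane-bound factor cut in the Golgi, had one of 0.15 (SE 0.12). Xbp1 was measured at 130.7, 143.7 and 95.7 CPM in ko replicates 1 to 3 and at 121.5, 147.6 and 94.9 CPM in wt replicates 1 to 3. These levels interleaved, with replicate 3 lowest in both groups, and the log2 fold change was 0.02 (SE 0.22, 95% interval -0.49 to 0.54, adjusted p = 0.981). No sensor gene passed the test, and in none of the 4 were the groups apart.

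Atf4, the transcription factor of the amino acid response, was the most abundant of the 8 sensor and factor genes per kilobase of exon, at 124.0 CPM per kilobase in ko and 102.1 in wt. Its level was 289.1, 297.8 and 290.2 CPM in ko replicates 1 to 3 and 239.6, 218.1 and 264.4 CPM in wt replicates 1 to 3. The ko libraries were close together and all above the highest wt library, with a log2 fold change of 0.28 (SE 0.12, 95% interval -0.02 to 0.58) and an adjusted p of 0.409, which missed the threshold. Ddit3, which encodes the factor CHOP of prolonged ER stress, was scarce, at 7.41, 9.88 and 10.3 CPM in ko and 9.86, 6.70 and 7.03 CPM in wt. Here 1 wt library reached the level of the higher ko libraries, and the log2 fold change was 0.22 (SE 0.23, adjusted p = 0.774). Atf5, a related factor translated by the same mechanism as Atf4, had a log2 fold change of 0.11 (SE 0.19), and Trib3, a pseudokinase induced by ATF4 and CHOP that restrains them, one of -0.0021 (SE 0.28). Trib3 averaged 32.3 ± 11.2 CPM in ko and 32.3 ± 5.68 CPM in wt (SD, n = 3 each).

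The stress effectors had values on both sides of 0. Sesn2, a leucine sensor that restrains the growth kinase complex mTORC1, was measured at 51.1, 58.4 and 82.5 CPM in ko replicates 1 to 3 and at 53.4, 40.4 and 41.1 CPM in wt replicates 1 to 3. The lowest ko library lay below the highest wt library, and ko replicate 3 stood above the rest (log2 fold change 0.51, SE 0.21, 95% interval 0.01 to 1.01, adjusted p = 0.372). Ddit4, which also restrains mTORC1, was the gene with the largest negative value. It had 44.8, 55.1 and 43.9 CPM in ko and 82.9, 69.8 and 53.3 CPM in wt. The groups met at their edges, with wt replicate 3 just below ko replicate 2, and the log2 fold change was -0.52 (SE 0.19, 95% interval -0.96 to -0.07, adjusted p = 0.307). Vldlr, a lipoprotein receptor gene of this response, was the scarcest of the 42 per kilobase, at 0.772 CPM per kilobase in ko and 0.535 in wt. Its levels of 5.52, 9.46 and 8.34 CPM in ko and 6.69, 2.45 and 7.03 CPM in wt overlapped, with wt replicate 2 far below the rest (log2 fold change 0.52, SE 0.41). Chac1, whose product degrades glutathione, had a log2 fold change of 0.09 (SE 0.31).

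The biosynthesis enzymes included 3 of the 7 genes with higher levels at an unadjusted p under 0.05. Asns, asparagine synthetase, had 55.5, 73.7 and 62.0 CPM in ko replicates 1 to 3 and 50.0, 43.3 and 41.3 CPM in wt replicates 1 to 3. The groups did not overlap, though ko replicate 1 and wt replicate 1 were close (log2 fold change 0.51, SE 0.14, 95% interval 0.16 to 0.85, adjusted p = 0.195). Shmt2, the mitochondrial enzyme that turns serine into glycine, had 50.2, 59.7 and 73.3 CPM in ko and 49.6, 38.4 and 46.0 CPM in wt. Mthfd2, the next enzyme of the mitochondrial folate pathway, had 11.1, 13.7 and 14.1 CPM in ko and 9.51, 10.7 and 7.25 CPM in wt. In both genes the groups did not overlap but nearly touched, with log2 fold changes of 0.45 for Shmt2 (SE 0.17, adjusted p = 0.331) and 0.50 for Mthfd2 (SE 0.20, adjusted p = 0.347). Serine synthesis is represented by 3 genes. Phgdh, its entry enzyme, averaged 58.9 ± 13.6 CPM in ko and 42.3 ± 7.89 CPM in wt (SD, n = 3 each; log2 fold change 0.48, SE 0.21). Psph, the last step, had a log2 fold change of 0.25 (SE 0.14), and Psat1, the middle step, one of -0.01 (SE 0.24). Of the exon bases of Psph, 10.4% overlap a Cct6a transcript on the other strand, and whether the counts keep the strands apart is not given.

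The 4 amino acid transporters had the highest median of any role, 0.51. Slc7a5, the light chain of the exchanger that brings in leucine and other large neutral amino acids, was measured at 62.5, 58.2 and 87.3 CPM in ko replicates 1 to 3 and at 46.9, 40.2 and 45.8 CPM in wt replicates 1 to 3. Every ko library lay clearly above the tight wt group, and the log2 fold change was 0.65 (SE 0.18, 95% interval 0.23 to 1.07, a 1.57-fold higher level), with an adjusted p of 0.184. Its partner Slc3a2, the heavy chain of that exchanger, had a log2 fold change of 0.27 (SE 0.20). Slc1a5, which carries glutamine and other neutral amino acids, had 9.99, 7.57 and 14.7 CPM in ko and 7.44, 4.95 and 7.66 CPM in wt. Its groups overlapped at their edges, and its log2 fold change of 0.68 (SE 0.30, adjusted p = 0.402) was the largest of the 42. Slc7a1, the carrier of arginine and lysine, had a log2 fold change of 0.38 (SE 0.21), with no overlap between the groups.

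The tRNA synthetases had a median of 0.13. The alanine enzyme Aars had a log2 fold change of 0.24 (SE 0.14) and the asparagine enzyme Nars one of 0.33 (SE 0.14), each with the ko libraries above the wt libraries. The glycine enzyme Gars, whose promoter is shown above, had one of 0.01 (SE 0.19). The serine enzyme Sars was measured at 228.2, 250.6 and 173.9 CPM in ko and at 243.4, 285.0 and 184.5 CPM in wt. These values overlapped widely (log2 fold change -0.13, SE 0.21, adjusted p = 0.872).

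**Figure D3:**
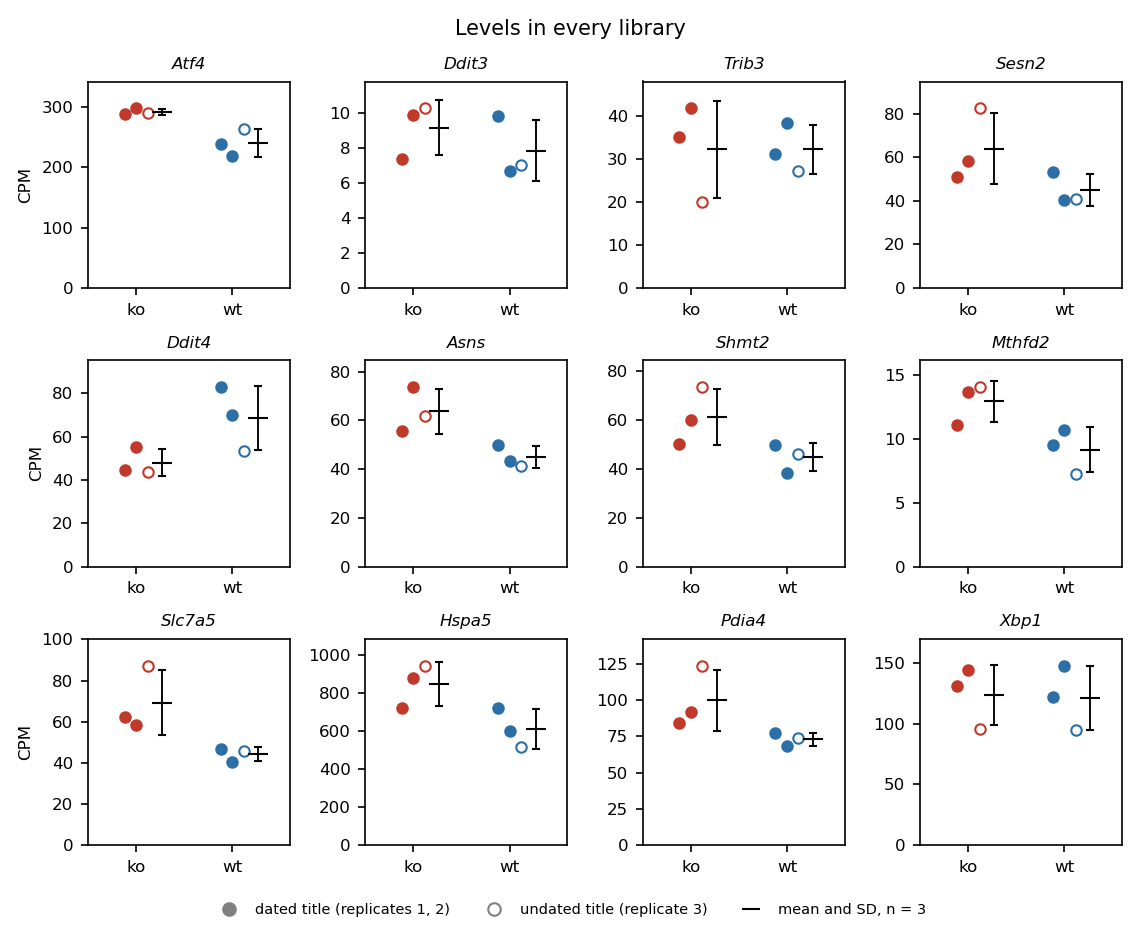
Levels in CPM (vertical axes start at 0) of 12 of the genes in the ko libraries and, to their right, the wt libraries, with open circles for replicate 3, whose titles carry no date, and the mean and SD of 3 libraries. Atf4, Asns, Shmt2, Mthfd2, Slc7a5 and Pdia4 show no overlap between groups. The open ko circle is the highest point for Sesn2, Shmt2, Mthfd2, Slc7a5, Hspa5 and Pdia4 and, by a small margin, for Ddit3.

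The ER chaperones were the most abundant of the 42 per kilobase of exon: Calr stood at 212.5 CPM per kilobase in ko and 174.1 in wt, Hspa5 at 200.3 in ko and 144.6 in wt, and Pdia3 at 156.5 in ko and 135.6 in wt. Hspa5, which encodes the main ER chaperone BiP, had 722, 876 and 943 CPM in ko replicates 1 to 3 and 723, 597 and 514 CPM in wt replicates 1 to 3. The replicate 1 libraries of both groups were level, and the other ko libraries lay above all wt libraries. Its log2 fold change was 0.47 (SE 0.19, 95% interval 0.02 to 0.92, a 1.38-fold higher level), and the adjusted p of 0.351 missed the threshold. Its ER partner Hsp90b1, of whose exon bases 10.3% overlap the pseudogene 1810014B01Rik on the other strand, had a log2 fold change of 0.32 (SE 0.16). The lectin chaperones Calr and Canx had 0.29 (SE 0.15) and 0.21 (SE 0.13), and Hyou1, a large relative of BiP, had 0.27 (SE 0.13). All 7 genes with the searched form of the ER stress element had log2 fold changes above 0, between 0.14 and 0.47. In the chaperone class that all 7 belong to, 12 of 13 genes lay above 0 (median 0.27), against 53.1% of all genes. Chaperone genes with a window but without that form had 0.59 (Dnajb9), 0.45 (Pdia4), 0.21 (Pdia3) and -0.04 (Sdf2l1). The 6 genes with the amino acid response element ran from -0.23 for Herpud1 to 0.52 for Vldlr. Of the genes with either element 0 passed the test, and a link of the elements to the fold changes was not tested.

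The J-domain cofactor Dnajb9, which holds IRE1 in check, had 52.3, 101.7 and 69.5 CPM in ko and 68.0, 53.7 and 26.9 CPM in wt. Its libraries scattered widely, with ko replicate 2 highest and wt replicate 3 lowest, and the log2 fold change of 0.59 had an SE of 0.38, the largest among the chaperone genes (adjusted p = 0.588). Dnajc3, the cofactor that inhibits PERK, had a log2 fold change of 0.14 (SE 0.13). Creld2 and Manf, secreted ER stress proteins, had 0.15 (SE 0.13) and 0.06 (SE 0.11). Sdf2l1, a partner of the ER J-domain proteins, had 13.2, 11.9 and 11.9 CPM in ko and 12.1, 14.4 and 11.6 CPM in wt. These levels overlapped (log2 fold change -0.04, SE 0.15, 95% interval -0.39 to 0.32).

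The protein disulphide isomerases, which form and correct disulphide bonds, had a median of 0.36. Pdia4 had 84.0, 91.9 and 123.8 CPM in ko replicates 1 to 3 and 77.0, 68.3 and 74.1 CPM in wt replicates 1 to 3. Every ko library lay above the wt group, ko replicate 3 by the most (log2 fold change 0.45, SE 0.17, 95% interval 0.06 to 0.84, adjusted p = 0.317). Pdia6 had a log2 fold change of 0.36 (SE 0.20), with overlapping groups, and Pdia3, the isomerase that works with calreticulin and calnexin, one of 0.21 (SE 0.13), with no overlap between the groups.

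The 3 ERAD genes lay on both sides of 0. Herpud1, an early target of ER stress that helps assemble the degradation complex, had 63.7, 52.8 and 35.3 CPM in ko and 60.7, 69.5 and 47.7 CPM in wt. The groups overlapped and ko replicate 3 was the lowest (log2 fold change -0.23, SE 0.24, 95% interval -0.80 to 0.35, adjusted p = 0.784). Edem1, which marks misfolded glycoproteins for removal, had a log2 fold change of -0.02 (SE 0.12), and Sel1l, a scaffold of the ubiquitin ligase, one of 0.10 (SE 0.16). The difference between the ERAD and chaperone medians was not tested.

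The date in the titles was taken up in the model as well, a term that cannot be told apart from the word Tryp in the undated titles. With the title date as a covariate, edgeR called 438 genes higher (3.20%) and 271 lower (1.98%) in ko, and 1 of the 42 (2.38%), Slc7a5, was among those higher (log2 fold change 0.62, SE 0.13, adjusted p = 0.0424). The call was also made with DESeq2 size factors (adjusted p = 0.0431) and without wt replicate 1 (0.0290, when Shmt2 and Slc1a5 were called too). It was lost without any of the other 5 libraries, with adjusted p of 0.103, 0.101 and 0.169 without ko replicates 1, 2 and 3 and of 0.0983 and 0.169 without wt replicates 2 and 3. At an unadjusted p under 0.05 this model gave 16 of the 42 genes higher (38.1%, against 12.0% of all genes) and 1 lower (2.38%, against 10.3%), Ddit4. In the 4 dated libraries alone, 0 of the 42 passed with edgeR (1.64% of all genes did, with 160 higher, 1.16%, and 67 lower, 0.485%). Of the 42, 3 lay higher there with an unadjusted p under 0.05, against 8.65% of all genes, and 1 lower, against 7.55%.

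Each of the 7 genes with higher levels at an unadjusted p under 0.05 had a larger difference in the undated pair than in the dated libraries. For Hspa5 the log2 ratio of the undated ko library to the undated wt library was 0.88, against 0.25 in the dated libraries, and for Sesn2 it was 1.01, against 0.20. For Slc7a5 the values were 0.93 and 0.45, for Mthfd2 0.95 and 0.26, for Pdia4 0.74 and 0.25, for Shmt2 0.67 and 0.30 and for Asns 0.59 and 0.44. For Ddit4 the order was the other way, with -0.28 in the undated pair and -0.64 in the dated libraries. The dated libraries were not alike: for each of the 7 genes the log2 ratio at replicate number 1 was below that at number 2. At numbers 1 and 2 it was -0.0029 and 0.55 for Hspa5, 0.017 and 0.64 for Shmt2 and 0.42 and 0.53 for Slc7a5. For Asns it was 0.15 and 0.77, so that number 2 exceeded the undated pair. The undated pair is 1 library against 1, so the difference between the undated and dated libraries was not tested.

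The contrast of undated with dated titles within the same model, chosen after its values were seen, compared 2 libraries with 4. It called 2 of the 42 higher (4.76%, against 5.53% of all genes) and 5 lower (11.9%, against 7.68%). Higher in the undated libraries were Slc3a2 (log2 difference 0.46, SE 0.10, adjusted p = 0.0348) and Pdia6 (0.44, SE 0.11, adjusted p = 0.0477). Lower were Herpud1 (-0.58, SE 0.13, adjusted p = 0.0359), Xbp1 (-0.51, SE 0.11, adjusted p = 0.0356), Sars (-0.49, SE 0.11, adjusted p = 0.0358), Atf5 (-0.44, SE 0.10, adjusted p = 0.0365) and Sel1l (-0.35, SE 0.09, adjusted p = 0.0440). These counts were not stable: both were 0 without ko replicate 1, 2 or 3 or wt replicate 3, they were 0 and 2 without wt replicate 2, and 4 and 6 without wt replicate 1. All 4 sensors and all 3 ERAD genes lay below 0 in this contrast, with medians of -0.26 and -0.35. The 8 basal keratinocyte markers and the 8 proliferation markers all lay above 0 in it, with medians of 1.47 and 1.55. The 7 suprabasal keratinocyte markers tested all lay below 0 (median -0.54), and so did 5 of 6 T cell markers (median -1.01), 6 of 7 endothelial markers (median -0.75) and 6 of 8 fibroblast markers (median -0.53). Their part in the values of the 42 genes was not tested.

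**Figure D4:**
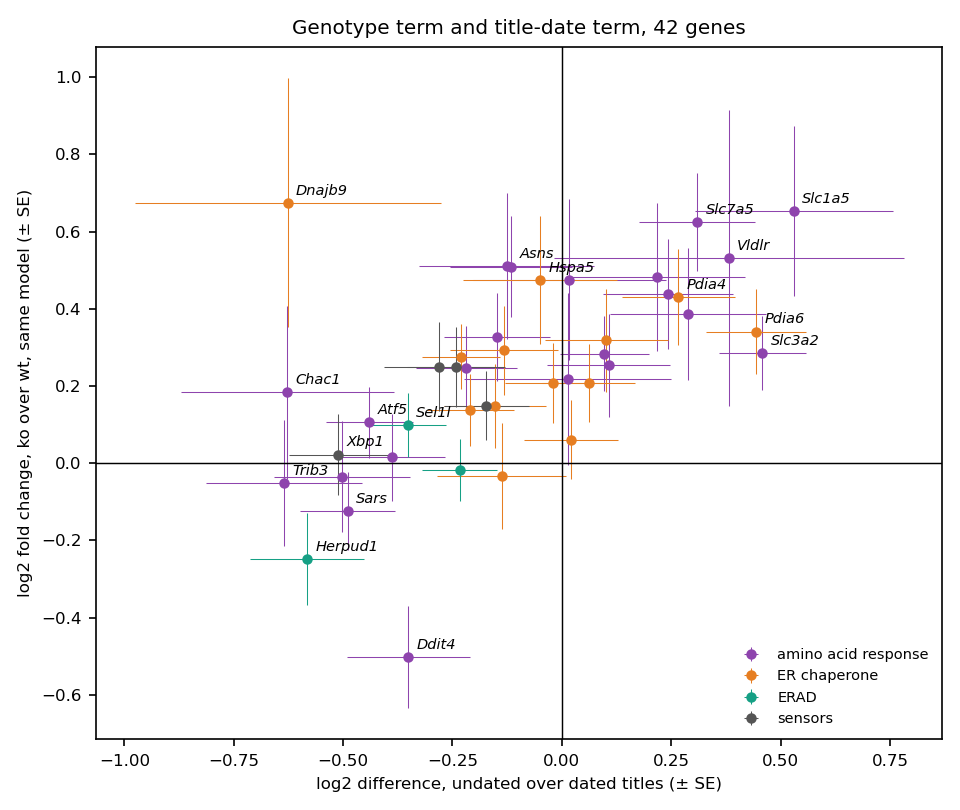
For each of the 42 genes the vertical axis gives the log2 fold change of ko over wt and the horizontal axis the log2 difference of undated over dated titles, both from 1 edgeR model and with SE bars, coloured by class. Herpud1, Sars, Xbp1 and Trib3 lie far to the left near or below 0 on the vertical axis, Slc3a2 and Pdia6 to the right, and Slc7a5 and Slc1a5 at the upper right.

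Markers of some other cell types also differed between the groups. The summed level of 8 endothelial genes was 11.1 to 22.0 CPM in ko and 3.46 to 4.49 CPM in wt, that of 8 fibroblast genes 180.0 to 759.7 CPM in ko and 66.6 to 177.5 CPM in wt, and that of 8 macrophage and myeloid genes 56.4 to 77.4 CPM in ko and 30.2 to 61.0 CPM in wt. No marker of these lists was at 0 in all libraries. All 7 endothelial genes tested were higher in ko at an unadjusted p under 0.05, against 7.98% of all genes, with 0 called by edgeR and 5 by DESeq2. Of the 8 fibroblast genes all lay above 0 (median 2.0), with 6 at an unadjusted p under 0.05, 0 called by edgeR and 5 by DESeq2. Of the 8 myeloid genes all lay above 0 (median 0.87), with 2 at an unadjusted p under 0.05 and 1 called by DESeq2, and of the 6 melanocyte genes all lay above 0 (median 0.50), with 3 at an unadjusted p under 0.05 and 0 called by DESeq2. In the undated pair the fibroblast sum was 180.0 CPM in ko and 177.5 CPM in wt and the myeloid sum 62.9 CPM in ko and 61.0 CPM in wt, and the endothelial sum was 11.1 CPM in ko and 4.08 CPM in wt. All 5 Langerhans cell (median 0.39), all 8 proliferation (0.31) and the 2 tested muscle markers (1.35) also lay above 0, against 53.1% of all genes. Below 0 lay 4 of 6 T cell markers (median -0.31) and 6 of 7 hair follicle markers (-0.29). Basal and suprabasal keratinocyte markers lay on both sides of 0 (medians 0.06 and -0.01). The basal sum varied widely within both groups, from 3321 to 11820 CPM in ko and from 2097 to 10260 CPM in wt. The proliferation sum ran from 221.1 to 727 CPM in ko and from 126.3 to 503.9 CPM in wt. Both sums were highest in ko replicate 3 and lowest in wt replicate 2. In the lists from Langerhans cells onward 0 markers had an unadjusted p under 0.05. The part of any of these markers in the values of the 42 genes was not tested. In bulk tissue fewer cells of a type and less RNA per cell cannot be told apart.

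Beyond the 42, 27 other genes reported as ATF4 targets were examined, of which 24 were tested, with 1 higher past the threshold and 0 lower (median 0.08). Stc2, a secreted glycoprotein hormone gene, rose to 6.46, 9.17 and 11.0 CPM in ko replicates 1 to 3, against 2.11, 2.07 and 1.72 CPM in wt replicates 1 to 3 (log2 fold change 2.17, SE 0.27, edgeR adjusted p = 0.0459). Stc2 was also called higher with DESeq2 (adjusted p = 4.78e-09). With edgeR the call was kept with the title date as a covariate (adjusted p = 0.0107) and with a replicate block (0.0260). It was kept as well with no filter on low counts (0.0269) and in the dated libraries alone (0.0385). The call was lost without ko replicate 2 or 3 and without wt replicate 1, 2 or 3 (adjusted p 0.0546 to 0.378). Slc7a11, the cystine importer, which is also a target of Nrf2, was at 14.1, 28.0 and 14.6 CPM in ko and 5.77, 4.73 and 4.44 CPM in wt (log2 fold change 1.92, SE 0.31, adjusted p = 0.0798). Aldh18a1, which starts proline synthesis, averaged 46.9 ± 4.52 CPM in ko and 29.3 ± 1.72 CPM in wt (SD, n = 3 each; log2 fold change 0.68, adjusted p = 0.0852). DESeq2 called 4 of the 24 higher and 1 lower, against 4.25% of all genes it tested, both directions together. Higher were Stc2, Slc7a11 (DESeq2 adjusted p = 6.24e-06), Aldh18a1 (0.00166) and Eif4ebp1 (0.0333), and lower was Nupr1 (0.0114). With the title date as a covariate, edgeR called the same genes, 4 higher (against 3.20% of all genes) and 1 lower (against 1.98%). Named after their values were seen, the translation repressor Eif4ebp1 had a log2 fold change of 0.66 (edgeR adjusted p = 0.143), the stress regulator Nupr1 one of -0.65 (0.140) and cystathionine gamma-lyase, Cth, one of -0.95 (0.255). The list thus spread from -0.95 to 2.17, wider than the 42 genes, which ran from -0.52 to 0.68.

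In the other lists of stress, translation and secretion genes 0 genes passed with edgeR in either direction, and DESeq2 called Ppp1r15b, Sec24d and Ier3. Of the 16 further tRNA synthetases tested, 13 lay above 0 (median 0.13) and 0 had an unadjusted p under 0.05, with 0.29 for Iars and 0.23 for both Farsb and Lars, the enzymes of isoleucine, phenylalanine and leucine. Of the 8 genes around eIF2alpha, 7 lay above 0 (median 0.15) and 2 had an unadjusted p under 0.05. The phosphatase subunit Ppp1r15b (DESeq2 adjusted p = 0.0212) averaged 146.5 ± 3.67 CPM in ko and 111.2 ± 4.37 CPM in wt (SD, n = 3 each; log2 fold change 0.40, edgeR adjusted p = 0.167). The kinase PKR gene, Eif2ak2, had 0.64, and the GCN2 inhibitor Impact 0.26. Of the 20 further folding and glycosylation genes 13 lay above 0 (median 0.07) and 2 had an unadjusted p under 0.05, led by the J-domain proteins Dnajc10 (0.54) and Dnajb11 (0.30) and the glycoprotein folding sensor Uggt1 (0.28). Of the 23 translocon and vesicle genes tested 17 lay above 0 (median 0.10) and 1 had an unadjusted p under 0.05, with 0.86 for the vesicle coat gene Sec24d (edgeR adjusted p = 0.0946, DESeq2 adjusted p = 0.00244) and 0.24 and 0.30 for the translocon genes Sec61a1 and Ssr1.

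Of the 17 further ERAD genes tested, 16 lay below 0 (median -0.06), with -0.44 for the ubiquitin ligase gene Rnf5, -0.37 for the conjugating enzyme gene Ube2g2 and -0.16 for the lectin gene Os9. At an unadjusted p under 0.05 the edgeR counts were 0 higher and 1 lower, Rnf5, and DESeq2 called 0. The 14 cytosolic and mitochondrial heat shock genes had a median of -0.10, with -0.44 for Hspb1, -0.39 for Hspb8 and 0.20 for Hspd1. The 10 further regulators tested had a median of -0.03, with -0.39 for the cell death suppressor gene Tmbim6, -0.20 for the membrane-bound factor gene Creb3 and 0.31 for the p53 target Bbc3. The 12 immediate early genes, which respond to the handling and digestion of tissue as well as to signalling in it, all lay above 0 (median 0.30), with 0.78 for Ier3, 0.56 for Fosb and 0.43 for Dusp1, and their part in the values of the 42 genes was not tested.

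**Figure D5:**
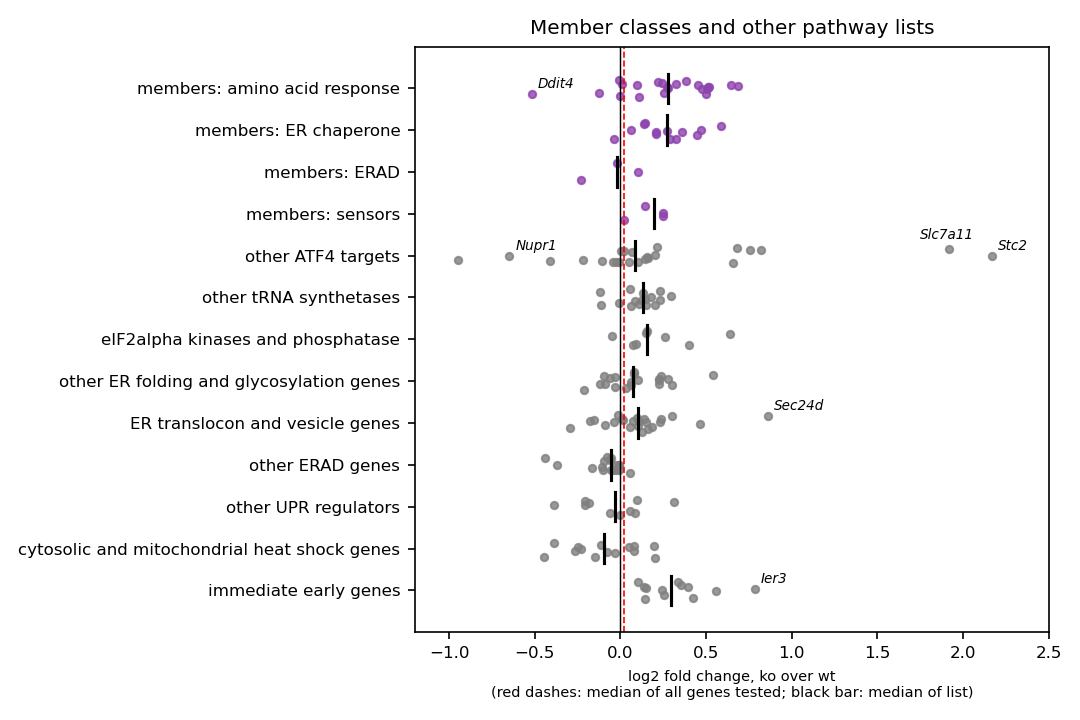
Each point is a gene, the horizontal axis gives its log2 fold change of ko over wt, black bars mark the median of each list and the red dashed line that of all genes tested (0.02). The medians are near 0.3 for the amino acid response and chaperone classes of the 42 genes (purple) and for the immediate early genes (grey), and slightly below 0 for both ERAD lists.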

How the data were processed

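Messenger RNA of 6 epidermis samples was sequenced as strand-specific 51 bp single-end reads, per the labels' protocols. The authors deposited raw counts per Ensembl gene, in 1 file per library. TopHat2 2.0.12, Bowtie 1.1, HTSeq and mm10 are named in the submitters' processing notes. Tool settings, annotation release and the strand option of the counting were not given in the sources used here. Unassigned reads made up 36.0 to 40.1% of reads in ko and 33.3 to 41.6% in wt, most of them with several alignments, and stayed out of library sizes and tests. The Phgdh-ps1 and Calr-ps pseudogenes can share reads with their parent genes.

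Symbols were matched for 40254 of the 41214 identifiers, coordinates and exon lengths came from GENCODE M21 on GRCm38, and promoters from RefSeq on GRCm38.p6. Genes kept by filterByExpr were scaled by TMM and tested in edgeR 4.0.16 (R 4.3.3) with glmQLFit, robust and with its current defaults, and glmQLFTest with genotype as the only factor. The Benjamini-Hochberg adjustment ran over all genes tested, with a threshold of 0.05. Fold changes are ko over wt, the SE is derived from the F statistic, and CPM use TMM-scaled library sizes. Depth was 17561294 to 22659511 counts per library.

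The members, lists, rules and alternatives were chosen with earlier results of these data known. All 42 genes were to be given with their fold change. Values in every library were to be given for genes with an unadjusted p under 0.05, genes called by edgeR or DESeq2, the 4 largest fold changes in each direction, and Atf4, Ddit3, Hspa5 and Xbp1, and up to 3 genes with the smallest p were to be named from each other list. The titles mark replicates as I, II and Tryp, taken here as 1, 2 and 3. The labels do not say that the replicates were separate animals, so p-values measure the spread between these samples, which may be technical. Libraries of a group all differed by more than sampling noise (chi-square over its degrees of freedom 24.4 to 105.5). Alternatives were DESeq2 1.42.0 as a test and its size factors as a scaling, limma-voom (limma 3.58.1), other filters on low counts, the date in the title as a covariate, the dated libraries alone, a replicate block, and leaving out each library. Upper-quartile and total-count scaling and the alternatives of the title-date model were added after the data were seen.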

Additional observations from a re-analysis of the deposited data

How the results depend on the processing

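No gene of the 42 was called under DESeq2 size factors, no filter, a filter of 1 CPM, DESeq2, limma-voom, the dated libraries alone, the replicate block, either added scaling or any left-out library, so that the count of 0 higher and 0 lower differed only with the title date as a covariate (1 higher). Over all genes the counts moved more. They were 55 higher and 2 lower with no filter, 18 higher with the filter of 1 CPM, 431 higher and 219 lower with DESeq2, 0 higher with limma-voom, 438 and 271 with the title date as a covariate, and 160 and 67 in the dated libraries alone. With each library left out in turn they were 0 to 64 higher and 0 to 2 lower. Same-numbered libraries deviated together for numbers 2 and 3 but not for number 1 (correlations of -0.19, 0.47 and 0.67 for numbers 1, 2 and 3), and ko replicate 1 correlated best with wt replicate 2 (0.51), so the numbers were not taken to pair the samples. With them as a replicate block 254 genes were higher and 100 lower, and 0 of the 42 passed.

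The class medians kept their direction except that of ERAD, which ran from -0.11 to 0.03 over left-out libraries. The amino acid response median ran from 0.23 to 0.36, that of the chaperones from 0.17 to 0.27 and that of the sensors from 0.09 to 0.21. Signs changed only for genes near 0. Gars had -0.011 with size factors, -0.0055 with upper quartiles, -0.018 with DESeq2, -0.017 with total counts and -0.039 in the dated libraries. Xbp1 had -0.0062 with DESeq2, -0.0073 with total counts and -0.0020 in the dated libraries. Trib3 had 0.00041 with the filter of 1 CPM and 0.11 in the dated libraries, where Chac1 had -0.20 and Psat1 0.059. Over left-out libraries Atf5 ran from -0.043 to 0.23, Chac1 from -0.23 to 0.32, Edem1 from -0.11 to 0.030, Gars from -0.14 to 0.17, Manf from -0.018 to 0.12, Psat1 from -0.26 to 0.15, Sars from -0.30 to 0.022, Sdf2l1 from -0.12 to 0.063, Sel1l from -0.025 to 0.18, Trib3 from -0.23 to 0.21 and Xbp1 from -0.15 to 0.19. The cause of these changes was not tested.

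With the title date in the model, the members higher in ko numbered 0 to 3 and those lower 0 over left-out libraries. Between undated and dated titles, 1 of the 42 was higher and 4 were lower with DESeq2 size factors, and 0 to 4 were higher and 0 to 6 lower over left-out libraries. The Stc2 call was also lost with the filter of 1 CPM (adjusted p = 0.0545), with limma-voom (0.0850), and with upper-quartile (0.0546) or total-count scaling (0.0754). With 3 libraries a group, the intervals in the text give the differences that remain possible.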
